A study of Mus musculus with 10 samples.

Results

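The matrix metalloproteinases (MMPs), the ADAM and ADAMTS metalloproteinases with the ADAMTS-like proteins, and the tissue inhibitors of metalloproteinases (TIMPs) were described in 10 mouse thyroid tumours profiled on whole-transcript arrays. Genes were taken by symbol. A probe set entered when it had a single gene symbol made of Mmp, Adam, Adamts, Adamtsl or Timp and a number, with a letter where the symbol has one, and a gene with several probe sets was represented by the one with the highest mean over the 10 arrays. This gave 83 of the 19938 genes measured: 34 ADAM, 23 ADAMTS and ADAMTS-like, 22 MMP and 4 TIMP genes. Mmp15 and Adamts2 were not analysed here. The study compared 5 anaplastic thyroid carcinomas (ATC), labelled TPOCreER; BrafV600E; p53 -/-, with 5 papillary thyroid carcinomas (PTC), labelled TPOCreER; BrafV600E. Both groups therefore carry the activated Braf allele and the same Cre driver, a Cre recombinase activated by an oestrogen-receptor ligand and expressed from the thyroid peroxidase promoter, which directs recombination to thyroid follicular cells. They differ by label in p53 and in histology, so genotype and tumour type cannot be told apart. The strain was mixed C57BL/6;129SvJae in both groups, ages were not given in the sources used here, and no normal thyroid was analysed.

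MMPs and ADAMTS enzymes are zinc proteases that cut collagens, proteoglycans and other proteins of the extracellular matrix. Most ADAMs are membrane proteins that release growth factors, cytokines and receptors from the cell surface. TIMPs bind the active site of these enzymes and block them, and in carcinomas both the tumour cells and the surrounding stroma and immune cells make members of these families. Array intensities measure RNA, not protein or protease activity.

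Within the MMP family, 10 genes lie close together on chromosome 9, and several are textbook targets of the transcription factor AP-1. Genes called neighbours here lie close together, and other protein-coding genes may lie between them. The 5 stretches shown are the 110 bases before the RefSeq start of cluster genes (build GRCm38.p6, plus strand, 5′ to 3′). They were chosen because Mmp1a and Mmp12 are the cluster genes that differed between the tumour types, and Mmp10, Mmp3 and Mmp13 are neighbours whose values are set beside them. Capitals mark an AP-1 motif (TGANTCA) and a TATA motif (TATAAA). The positions are chr9:7464031-7464140 for Mmp1a, chr9:7502232-7502341 for Mmp10, chr9:7445712-7445821 for Mmp3, chr9:7272404-7272513 for Mmp13 and chr9:7347264-7347373 for the second of the Mmp12 starts. The TATA match of that Mmp12 window lies after the start and so outside its stretch.
Mmp1a: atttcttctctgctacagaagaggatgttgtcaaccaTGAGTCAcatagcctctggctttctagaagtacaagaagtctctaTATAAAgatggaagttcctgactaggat
Mmp10: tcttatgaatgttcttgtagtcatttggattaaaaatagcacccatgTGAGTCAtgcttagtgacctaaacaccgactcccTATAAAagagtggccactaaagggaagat
Mmp3: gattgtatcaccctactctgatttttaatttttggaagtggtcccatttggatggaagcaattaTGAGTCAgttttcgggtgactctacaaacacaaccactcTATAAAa
Mmp13: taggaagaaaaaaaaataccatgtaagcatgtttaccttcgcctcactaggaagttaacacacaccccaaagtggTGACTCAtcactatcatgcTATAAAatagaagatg
Mmp12: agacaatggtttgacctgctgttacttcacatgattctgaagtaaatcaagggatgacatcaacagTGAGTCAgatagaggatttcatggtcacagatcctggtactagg

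Both motifs were searched on both strands of windows from 250 bases before to 50 bases after each RefSeq start, which existed for 52 of the 83 genes. The AP-1 motif was found in 8 of 17 MMP genes (47.1%), 5 of 18 ADAM genes (27.8%), 0 of 13 ADAMTS genes and 0 of 4 TIMP genes, against 8.97% of the 27025 genes in the promoter table. Of the 10 chromosome 9 neighbours, 8 held the AP-1 and the TATA motif together, with first bases 19 to 48 bases apart, and in the stretches shown the matches share no base. The motif AGGAAG, bound by ETS factors of the PEA3 group, was found in 40.4% of the 52 genes and in 38.4% of all genes. A match is a description of letters in a window. The AP-1 motif is present in Mmp1a, which rose, and in Mmp10, Mmp3 and Mmp13, which did not pass the test. In Mmp12, which fell, it is present in the window of the second start. The window of the first Mmp12 start held neither the AP-1 nor the TATA motif. All stretches shown hold the AP-1 motif, while the cluster genes Mmp8 and Mmp27, not shown, held none in their windows.

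The arrays had medians of 7.25 to 7.34 log2 units. ATC 5 (numbers are the replicate numbers of the titles) had the lowest array weight (0.375) and the widest quartiles, 6.02 and 8.72. ATC 2 lay nearest to the PTC tumours on the first principal component, at 11.99 against 23.25 to 46.61 for the other ATC tumours and -36.53 to -28.82 for the PTC tumours. All 8 macrophage markers rose in ATC, with a mean over the list of 10.66 to 11.37 in ATC against 9.47 to 9.93 in PTC. Of 6 epithelial markers 4 fell, with list means of 8.39 to 10.42 in ATC against 11.16 to 11.36 in PTC. Of 8 fibroblast markers 4 fell, with 9.29 to 10.20 in ATC against 10.10 to 10.30 in PTC. Of all genes, 11.5% were higher and 9.72% lower in ATC. Pdgfra, a marker of the same fibroblast list, had a difference of the other sign (1.17, adjusted p = 0.0848), which passed without ATC 2 (1.57, adjusted p = 0.0056). Thyroglobulin (Tg), which marks thyroid follicular cells, read 7.17, 12.00, 6.84, 11.48 and 10.23 in ATC 1 to 5, against 12.72, 11.28, 12.08, 12.58 and 12.88 in PTC 1 to 5 (adjusted p = 0.0583). The Tg difference of -2.76 passed without ATC 2 (-3.38, adjusted p = 0.0194) or ATC 4 (-3.25, adjusted p = 0.0337). In tumour pieces of mixed cell types, fewer cells of a type and less RNA per cell cannot be told apart. The labels do not say that the tumours came from separate animals, so the p-values measure the spread between these tumours.

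Of the 83 family genes, 6 rose, 9 fell and 68 did not pass the test (limma, Benjamini-Hochberg adjusted p under 0.05 over all 19938 genes). The share that passed, 18.1%, stands beside 21.2% of all genes, of which 11.5% were higher and 9.72% lower in ATC, against 7.23% and 10.8% of the family genes. At an unadjusted p under 0.05 there were 25 family genes. The median difference, ATC minus PTC, was -0.01 log2 units over the family and -0.02 over all genes, and 16.9% of the family against 14% of all genes differed by at least 0.5. In 3 family genes (Adamts14, Adam15 and Timp2) the lowest ATC tumour exceeded the highest PTC tumour, which held for 9.13% of all genes, and in 8 the highest ATC tumour was below the lowest PTC tumour, which held for 7.74%. By family, 1 MMP rose and 2 fell of 22, 2 ADAMs rose and 3 fell of 34, 2 ADAMTS genes rose and 4 fell of 23, and 1 TIMP rose and 0 fell of 4. These family counts are small and move with single tumours: leaving out PTC 3 or PTC 4, for example, left 0 MMPs that rose and 0 that fell.

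**Figure D1:**
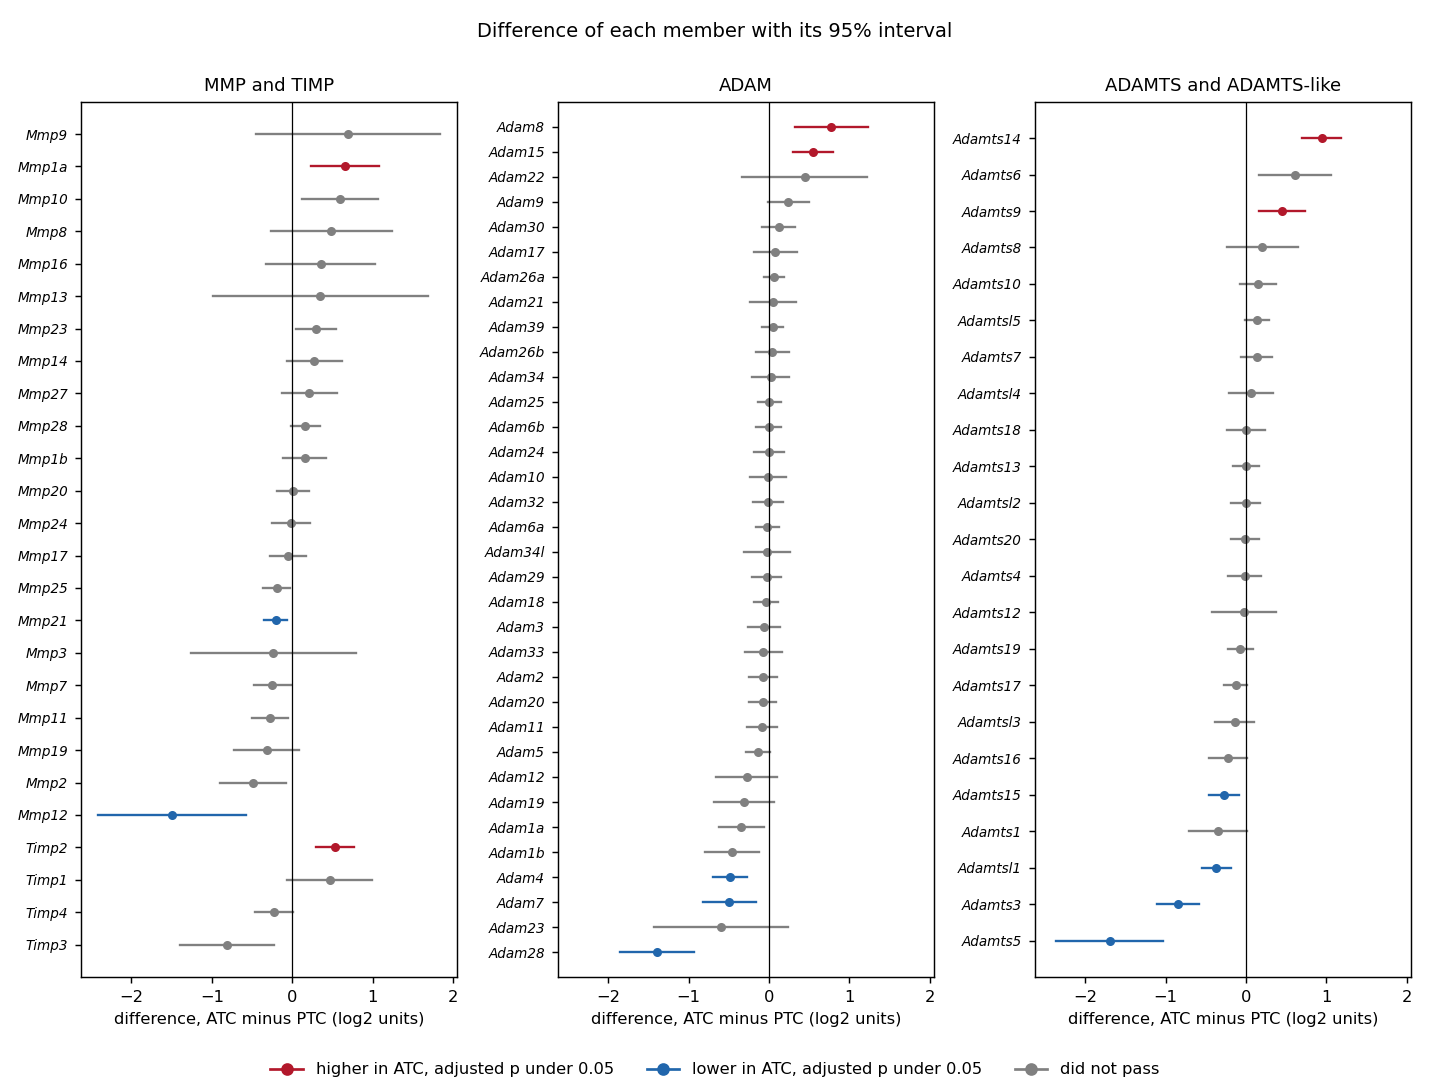
Difference of each of the 83 genes, ATC minus PTC in log2 units on the horizontal axis, with its 95% interval, for MMPs and TIMPs, ADAMs, and ADAMTS with ADAMTS-like genes. Red marks the 6 genes that rose and blue the 9 that fell; Adamts5, at -1.70, lies lowest, and Adamts14, at 0.94, highest.

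Among the inhibitors, Timp2 rose, Timp3 was at the edge of the threshold and Timp1 and Timp4 did not pass. Timp2, which blocks MMPs and together with Mmp14 also takes part in activating the Mmp2 proenzyme, read 11.91, 11.33, 11.79, 11.49 and 11.64 in ATC 1 to 5, against 11.08, 11.06, 10.97, 11.13 and 11.25 in PTC 1 to 5. Every ATC tumour was above every PTC tumour. The difference was 0.53 ± 0.11 (SE; 1.45-fold; adjusted p = 0.00518) and passed under all 18 alternatives run. Timp3, the matrix-bound inhibitor that also acts on ADAM10, ADAM17 and several ADAMTS enzymes, read 10.27, 11.05, 9.93, 10.91 and 11.45 in ATC tumours, against 11.55, 11.27, 11.49, 11.29 and 12.06 in PTC tumours. ATC 5 was the ATC tumour inside the PTC range. Its difference of -0.81 ± 0.27 (95% interval -1.39 to -0.23) had an adjusted p of 0.0508. Without ATC 5 the difference was -0.99 (adjusted p = 0.0179), and without ATC 2 it was -0.89 (adjusted p = 0.0488). With the replicate number as a block (replicate block) the same -0.81 had an adjusted p of 0.0322. The labels do not say that tumours of the same number are pairs.

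Timp1, an inducible inhibitor of secreted MMPs, read 10.90, 11.24, 10.29, 10.47 and 10.88 in ATC tumours, against 11.02, 10.17, 10.24, 10.40 and 9.63 in PTC tumours. The groups overlapped, with PTC 1 among the high tumours, and the difference was 0.47 ± 0.24 (adjusted p = 0.207), or 0.30 without PTC 5. Timp4, the least widely expressed of the inhibitors, read 6.05, 6.24, 6.31, 6.49 and 6.04 in ATC tumours, against 6.54, 6.31, 6.26, 6.67 and 6.50 in PTC tumours. Its difference was -0.23 ± 0.11 (95% interval -0.47 to 0.01; adjusted p = 0.172), again with overlapping groups. Timp2 and Timp3 thus had differences of opposite sign in the same tumours, and ATC 2 was the lowest ATC tumour for Timp2 and the second highest for Timp3.

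**Figure D2:**
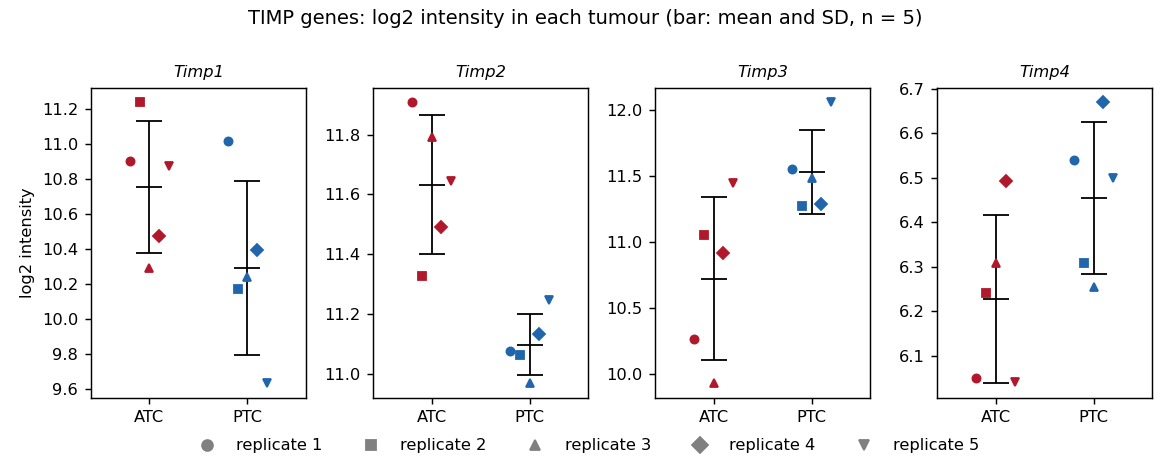
Log2 intensity (vertical axis) of Timp1 to Timp4 in each ATC tumour (red, left) and PTC tumour (blue, right), with mean and SD of 5 tumours and a symbol per replicate number. Timp2 is separated between the groups, at 11.33 to 11.91 in ATC and 10.97 to 11.25 in PTC, and for Timp3 ATC 5, at 11.45, reaches the PTC range.

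Neither gelatinase, the MMPs that cut denatured collagen and basement membrane collagen, passed the test. Mmp2, made mostly by stromal cells, read 9.45, 9.15, 9.33, 9.71 and 10.12 in ATC tumours, against 10.12, 9.95, 9.60, 10.11 and 10.39 in PTC tumours. ATC 5 was the highest ATC tumour. The difference was -0.48 ± 0.19 (adjusted p = 0.0937), and it passed without ATC 5 (-0.62, adjusted p = 0.0214). It also passed with the replicate block, a pairing the labels do not state (adjusted p = 0.0179). ATC 5 also had the highest fibroblast marker mean of the ATC tumours (10.20), whose part in the Mmp2 level was not tested. Mmp9, a gelatinase of neutrophils and macrophages among other cells, read 6.82, 7.35, 7.56, 9.61 and 9.25 in ATC tumours, against 7.22, 8.27, 7.26, 7.72 and 6.64 in PTC tumours. ATC 4 and ATC 5 were above all PTC tumours and the other ATC tumours were within their range, so the difference of 0.70 carried an interval of -0.44 to 1.84 (adjusted p = 0.399). It was 0.32 without ATC 4, 0.41 without ATC 5 and 1.02 without ATC 1, none of which passed.

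Of the 4 interstitial collagenases, which cut native fibrillar collagen, Mmp1a rose and Mmp1b, Mmp8 and Mmp13 did not pass. The share that passed, 25%, is near the 21.2% of all genes. Mmp1a, one of the mouse counterparts of human MMP1, read 5.47, 4.75, 6.03, 5.58 and 5.13 in ATC tumours, against 4.89, 4.61, 4.69, 4.69 and 4.79 in PTC tumours. ATC 2 lay inside the PTC range and the other ATC tumours above it. The difference was 0.66 ± 0.19 (1.58-fold, adjusted p = 0.0318). Mmp1a is a dim gene: each value lies below the lower quartile of its array (6.02 to 6.19). It was therefore not tested in the fit with a filter on dim genes. This call was lost when ATC 1, ATC 4, PTC 2, PTC 3, PTC 4 or PTC 5 was left out, with differences of 0.61 to 0.67 and adjusted p of 0.0547 to 0.0678. Mmp1a and Mmp1b are close paralogs, so shared signal between their probe sets is possible, and Mmp1b, at 4.13 to 4.81 in ATC and 4.05 to 4.35 in PTC, differed by 0.15 ± 0.12 (adjusted p = 0.426).

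Mmp13, the collagenase-3 of cartilage, bone and many carcinomas, had the widest range over ATC tumours of all 83 genes. It read 8.23, 6.94, 10.10, 6.59 and 9.34 in ATC tumours, against 7.91, 8.79, 7.90, 7.71 and 7.15 in PTC tumours. ATC 3 and ATC 5 were above every PTC tumour and ATC 2 and ATC 4 below every one, and the difference was 0.35 ± 0.61 (adjusted p = 0.746). Mmp8, the neutrophil collagenase, read 6.03, 7.32, 7.87, 7.37 and 8.26 in ATC tumours, against 6.86, 7.296, 6.88, 6.96 and 6.42 in PTC tumours. All ATC tumours but ATC 1 were above the PTC tumours. The difference was 0.49 ± 0.34 (adjusted p = 0.364), 0.82 without ATC 1 (adjusted p = 0.0241) and 0.27 without ATC 5 (adjusted p = 0.634). Beside it, 8 of 9 neutrophil markers did not pass the test, Ltf fell (-1.07, adjusted p = 0.0232; lost without ATC 3, ATC 5, PTC 2, PTC 3 or PTC 5, adjusted p 0.0506 to 0.055), and their list mean was 6.44 to 7.13 in ATC and 6.52 to 7.996 in PTC. Without PTC 5, 3 of the 9 fell, among them S100a9 (-1.79, adjusted p = 0.0214) and Cxcr2 (-1.79, adjusted p = 0.0155).

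The largest MMP difference was that of Mmp12, macrophage elastase, which fell. It read 9.97, 11.22, 11.17, 9.06 and 11.60 in ATC tumours, against 11.96, 12.38, 12.47, 11.99 and 11.68 in PTC tumours. All ATC tumours were below all PTC tumours, with ATC 4 and ATC 1 far below the others and ATC 5 close to PTC 5. The difference was -1.49 ± 0.42 (2.82-fold lower; 95% interval -2.42 to -0.57; adjusted p = 0.0264). The call was lost without ATC 1 (-1.34, adjusted p = 0.0626), PTC 2 (-1.42, adjusted p = 0.058), PTC 3 (-1.40, adjusted p = 0.0641) or PTC 4 (-1.52, adjusted p = 0.0503). Mmp12 fell in the same tumours in which all 8 macrophage markers rose, among them Msr1, the macrophage scavenger receptor, by 1.79 ± 0.22 (adjusted p = 0.000342). Mmp7 (matrilysin), another gene of the chromosome 9 cluster, differed by -0.25 ± 0.10 (adjusted p = 0.119).

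None of the 3 stromelysins, broad-spectrum matrix proteases, passed the test. Mmp10 read 7.43, 6.87, 8.19, 7.36 and 7.40 in ATC tumours, against 6.87, 7.32, 6.68, 6.88 and 6.55 in PTC tumours. ATC 2 lay inside the PTC range and PTC 2 was the highest PTC tumour, and the difference of 0.59 ± 0.22 (adjusted p = 0.0759) passed without ATC 2 (0.74, adjusted p = 0.0238) or without PTC 2 (0.71, adjusted p = 0.044). Mmp3 ranged from 8.20 to 10.62 in ATC and from 8.55 to 10.46 in PTC, with a difference of -0.24 ± 0.47. Mmp11, stromelysin-3 of tumour stroma, read 7.29 to 7.72 in ATC and 7.55 to 7.97 in PTC. Its difference of -0.27 ± 0.10 (adjusted p = 0.0816) passed without ATC 5 (-0.34, adjusted p = 0.023). It also passed with the replicate block, a pairing the labels do not state (adjusted p = 0.0326).

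Along chromosome 9 the 10 neighbours run Mmp13, Mmp12, Mmp1b, Mmp3, Mmp1a, Mmp10, Mmp8, Mmp27, Mmp20 and Mmp7. The cluster held 1 gene that rose, 1 that fell and 8 that did not pass, against 11.5% and 9.72% of all genes. Differences along the cluster ran from -1.49 for Mmp12 to 0.66 for Mmp1a, without a run of passing neighbours. ATC 3 was the highest ATC tumour for Mmp13, Mmp1b, Mmp1a, Mmp10 and Mmp20, ATC 5 for Mmp12, Mmp3, Mmp8 and Mmp27, and ATC 4 for Mmp7.

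**Figure D3:**
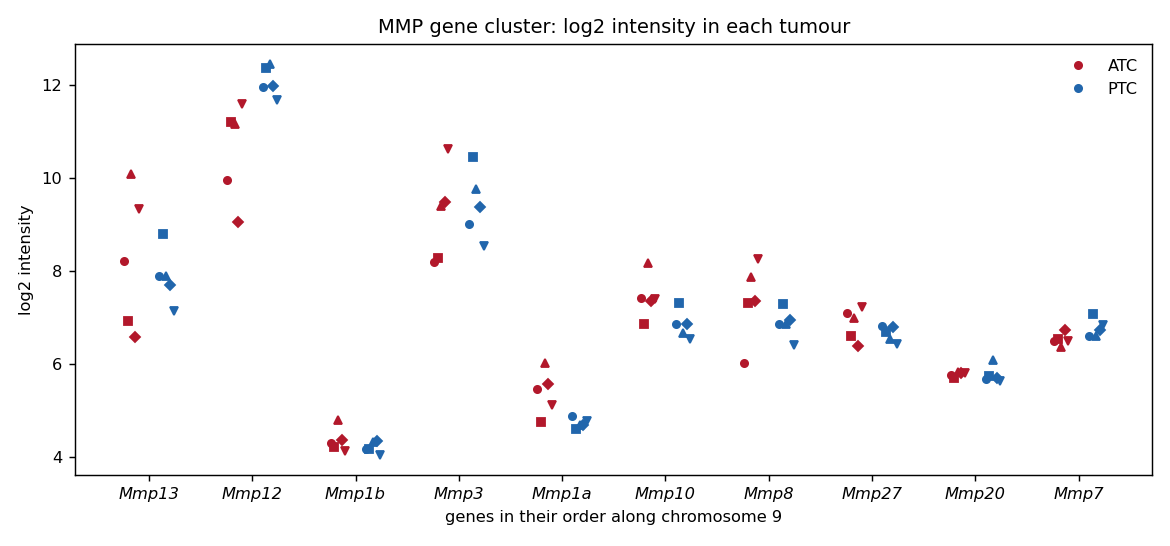
Log2 intensity (vertical axis) of the 10 neighbouring MMP genes in their order along chromosome 9, with ATC tumours in red to the left and PTC tumours in blue to the right of each gene. Mmp12 lies lower in all ATC tumours (9.06 to 11.60) than in PTC tumours (11.68 to 12.47), and Mmp13 and Mmp3 spread widely within ATC; heights are not comparable between genes.

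The membrane-type MMPs, which act at the cell surface, did not pass in any of the 5 genes measured. Mmp14, the main activator of Mmp2, read 9.81, 9.79, 9.70, 9.67 and 10.57 in ATC tumours, against 9.81, 9.60, 9.58, 9.53 and 9.63 in PTC tumours. ATC 5 stood apart from an otherwise narrow set of values. The difference was 0.28 ± 0.16 (adjusted p = 0.249) with ATC 5 and 0.11 without it. Mmp16 read 7.26, 7.27, 6.50, 7.52 and 5.80 in ATC tumours, against 6.93, 6.03, 6.42, 6.32 and 6.87 in PTC tumours, and ATC 5 was here the lowest of all 10. The difference was 0.35 ± 0.31 (adjusted p = 0.476), with 0.19 without ATC 4, 0.23 without PTC 2 and 0.62 without ATC 5. Mmp25, a membrane-type MMP of leukocytes, differed by -0.19 ± 0.08 (adjusted p = 0.0937) and by -0.25 without ATC 2 (adjusted p = 0.0324).

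Of the 6 remaining MMPs, 1 passed (16.7%, against 21.2% of all genes): Mmp21 fell, by a small amount. This MMP, known for its role in setting left-right body asymmetry, read 7.02 to 7.14 in ATC and 7.23 to 7.45 in PTC, with no overlap. Its difference of -0.20 ± 0.06 (adjusted p = 0.0417) was lost whichever single tumour was left out (-0.22 to -0.17; adjusted p 0.0515 to 0.0969). It was also lost under quantile normalization (-0.15, adjusted p = 0.128) and median centring of the arrays (-0.17, adjusted p = 0.122). Mmp19 read 8.56, 8.45, 8.37, 8.35 and 9.31 in ATC tumours, against 9.22, 8.92, 8.88, 9.07 and 8.54 in PTC tumours. ATC 5 was the highest of all 10 tumours, and PTC 5 lay among the other ATC tumours. The difference of -0.32 ± 0.19 (adjusted p = 0.27) was -0.49 without ATC 5 (adjusted p = 0.0205). Mmp23 differed by 0.30 ± 0.12 (adjusted p = 0.0956) and by 0.40 without ATC 1 (adjusted p = 0.0098).

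Several MMPs varied widely among the ATC tumours. An ATC range of at least 1.5 log2 units was found in 6 of 22 MMPs (27.3%) and in 10 of the 83 family genes (12%), against 3.58% of all genes. In PTC tumours 3 of the 83 genes (3.61%) had such a range, against 1.15% of all genes. All 3 were MMPs (13.6% of the 22), so a wide range was not confined to ATC. The SD was larger in ATC than in PTC for 18 of 22 MMPs (81.8%) and 60 of 83 family genes (72.3%), a share that was 68.6% over all genes. ATC 5 was the highest ATC tumour for 11 of 22 MMPs (50%), against 22.4% of all genes. ATC 5 also had the highest macrophage (11.37) and fibroblast (10.20) marker means of the ATC tumours and the lowest array weight; their part in the MMP values was not tested. These shares describe the tumours and carry no test.

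**Figure D4:**
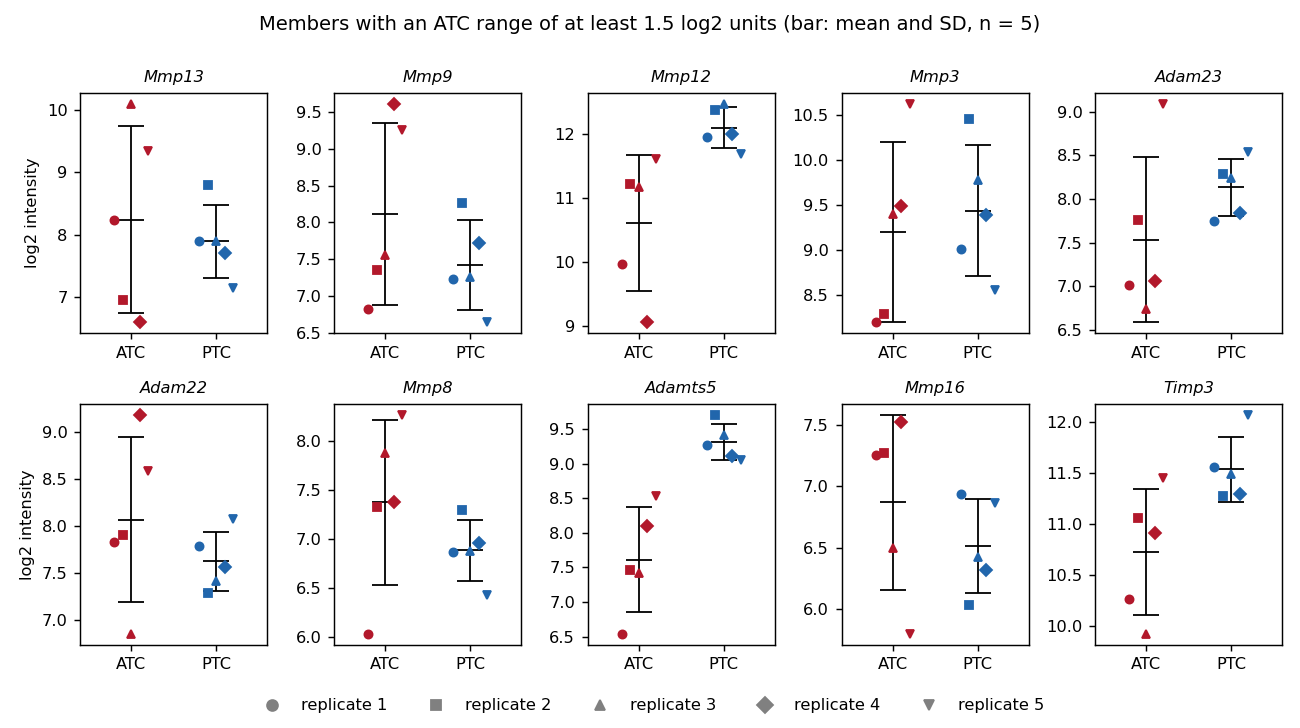
Log2 intensity (vertical axis) in each ATC tumour (red, left) and PTC tumour (blue, right) of the 10 genes with an ATC range of at least 1.5 log2 units, with mean and SD of 5 tumours. Ranges run from 3.51 for Mmp13 to 1.52 for Timp3, and the tumour that is highest or lowest changes from gene to gene.

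Among the 9 broadly expressed ADAMs with a catalytic site, Adam8 and Adam15 rose and Adam28 fell (33.3%, against 21.2% of all genes). Adam28, known in human lymphocytes and carcinoma cells and able to cut the low-affinity IgE receptor, read 6.36, 6.68, 6.38, 6.41 and 6.43 in ATC tumours, against 7.05, 8.38, 7.81, 7.75 and 8.26 in PTC tumours. ATC tumours lay close together and below all PTC tumours, which spread over more than 1 log2 unit. The difference was -1.40 ± 0.21 (2.64-fold lower; adjusted p = 0.000996) and passed under all 17 alternatives that could be run. Fcer2a, which encodes the IgE receptor named above, also fell, by 1.07 on the log2 scale (SE 0.21; adjusted p = 0.00413). Markers of lymphocytes moved in part beside Adam28: 3 of 5 T and NK markers fell and 0 of 3 B markers passed, with list means of 6.54 to 7.18 in ATC and 7.15 to 7.58 in PTC for T and NK cells, and 6.07 to 6.52 in ATC and 6.25 to 7.61 in PTC for B cells. For B cells the 7.61 was that of PTC 2 alone, and the other PTC tumours read 6.25 to 6.42, within the ATC range. The part of these lymphocyte markers in the Adam28 and Fcer2a levels was not tested.

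Adam15, which carries an integrin-binding disintegrin domain, read 8.996, 8.86, 9.13, 8.90 and 9.39 in ATC tumours, against 8.66, 8.32, 8.38, 8.49 and 8.68 in PTC tumours. Every ATC tumour was above every PTC tumour. The difference was 0.55 ± 0.11 (1.46-fold; adjusted p = 0.00579) and passed under all 18 alternatives. Adam8, a sheddase of leukocytes and macrophages that is also made by carcinoma cells, read 8.60, 8.64, 9.26, 9.05 and 9.78 in ATC tumours, against 8.66, 8.09, 8.15, 8.31 and 8.24 in PTC tumours. PTC 1 was slightly above ATC 1 and ATC 2, and the other PTC tumours were below the ATC range. The difference of 0.78 ± 0.21 (1.71-fold; adjusted p = 0.0213) was 0.74 without PTC 3, where the adjusted p was 0.0525. The 8 macrophage markers were higher in every ATC tumour than in every PTC tumour, and their part in the Adam8 level was not tested.

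The main sheddases of the family did not pass. Adam10, which releases Notch receptors and cadherins, read 10.60, 10.71, 10.76, 10.58 and 10.47 in ATC tumours, against 10.51, 10.95, 10.65, 10.65 and 10.42 in PTC tumours. Its difference was -0.01 ± 0.10, with an interval of -0.24 to 0.21 (adjusted p = 0.95). Adam17, which releases tumour necrosis factor and ligands of the EGF receptor, read 9.80, 9.90, 9.80, 9.45 and 9.997 in ATC tumours, against 9.63, 9.98, 9.85, 9.69 and 9.42 in PTC tumours. Its difference was 0.08 ± 0.12, with an interval of -0.19 to 0.35 (adjusted p = 0.718). For both genes the groups overlapped throughout, and a difference of a size within those intervals, in either direction, remains possible. Adam9 (0.24 ± 0.12), Adam12 (-0.28 ± 0.17), Adam19 (-0.31 ± 0.17) and Adam33 (-0.07 ± 0.10) did not pass either.

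Adam11, Adam22 and Adam23, which lack catalytic activity and are known as neural adhesion proteins, did not pass. Adam23 read 7.01, 7.77, 6.75, 7.07 and 9.09 in ATC tumours, against 7.75, 8.29, 8.24, 7.84 and 8.54 in PTC tumours. ATC 5 was the highest of all 10 tumours, although 3 of the other ATC tumours lay below the PTC range. The difference was -0.60 ± 0.38 (adjusted p = 0.315), and -0.99 without ATC 5 (adjusted p = 0.0111). Adam22 ranged from 6.86 to 9.18 in ATC and from 7.29 to 8.08 in PTC (difference 0.44 ± 0.35, adjusted p = 0.432).

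The 22 other ADAMs, most of them known from testis and epididymis, held 2 calls: Adam4 and Adam7 fell and 20 did not pass. The share of 9.09% stands beside 21.2% of all genes and 10.2% of all genes below the median level. The median absolute difference of 0.05 log2 units stands beside 0.14 for all genes and 0.10 for those below the median level. Of the called genes, Adam4 lies above the median level. Adam7, a catalytically inactive ADAM of the epididymis, read 5.47, 5.44, 5.40, 5.52 and 4.93 in ATC tumours, against 6.13, 5.74, 6.15, 5.45 and 5.77 in PTC tumours. ATC 5 was the lowest and PTC 4 lay inside the ATC range. The difference was -0.49 ± 0.15 (adjusted p = 0.0397). The call was lost when ATC 1, 2, 3 or 5 or PTC 1, 2, 3 or 5 was left out (-0.52 to -0.39; adjusted p 0.0529 to 0.0964). The Adam7 call was also lost under median centring (-0.46, adjusted p = 0.0607) and array weights (-0.43, adjusted p = 0.093). Adam4 read 8.50 to 8.72 in ATC and 8.76 to 9.27 in PTC, without overlap. The Adam4 difference of -0.49 ± 0.10 (adjusted p = 0.00469) passed under all alternatives. Adam1a and Adam1b, neighbouring paralogs known from mouse sperm, differed by -0.34 and -0.46 (adjusted p = 0.0763 and 0.0529). Without ATC 4 both passed, at -0.46 (adjusted p = 0.0044) for Adam1a and -0.61 (adjusted p = 0.00162) for Adam1b. For these paralogs, and for the pairs Adam26a and Adam26b, Adam34 and Adam34l, and Adam6a and Adam6b, probe sets could share signal.

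The ADAMTS family held both the steepest rise and the steepest fall of the 83 genes. The procollagen N-propeptidases Adamts14 and Adamts3, which trim the ends of new fibrillar collagen, moved in opposite directions. Adamts14 read 7.82, 7.58, 8.15, 7.97 and 8.17 in ATC tumours, against 6.97, 6.96, 6.87, 7.01 and 7.14 in PTC tumours. Adamts3, which also processes the lymphatic growth factor VEGF-C, read 7.56, 7.80, 7.67, 7.94 and 7.79 in ATC tumours, against 8.87, 8.27, 8.42, 8.75 and 8.69 in PTC tumours. Neither gene had overlapping groups. Adamts14 differed by 0.94 ± 0.11 (1.92-fold; adjusted p = 0.000317) and Adamts3 by -0.85 ± 0.12 (1.8-fold lower; adjusted p = 0.000669), and both passed under every alternative run. Of the 16 probe sets of Adamts3, 15 fell and 1 did not pass, with differences of -1.25 to -0.40.

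Among the 7 proteoglycanases, which cut aggrecan and versican, Adamts5 and Adamts15 fell and Adamts9 rose. That is 42.9% of a small class, against 21.2% of all genes. Adamts5, the main aggrecanase of mouse cartilage, read 6.55, 7.46, 7.42, 8.10 and 8.53 in ATC tumours, against 9.27, 9.70, 9.41, 9.10 and 9.06 in PTC tumours. All ATC tumours were below all PTC tumours, although the ATC tumours ranged over 1.99 log2 units, from ATC 1 to ATC 5. The difference was -1.70 ± 0.30 (3.24-fold lower; 95% interval -2.36 to -1.03; adjusted p = 0.00273) and ran from -1.95 to -1.43 over the alternatives, all of which passed. Fibroblast markers moved beside it, with 4 of 8 lower in ATC, among them Lum by -2.07 ± 0.35 (adjusted p = 0.00177), while Pdgfra differed by 1.17 (adjusted p = 0.0848; 1.57 without ATC 2, adjusted p = 0.0056). Their part in the Adamts5 level was not tested. Adamts1, the chromosome 16 neighbour of Adamts5, read 8.07 to 9.06 in ATC and 8.62 to 9.01 in PTC. Its difference of -0.35 ± 0.16 (adjusted p = 0.165) was -0.48 without ATC 5 (adjusted p = 0.0361).

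Adamts9, a versican-cutting protease, read 8.88, 9.04, 9.42, 9.03 and 9.43 in ATC tumours, against 8.49, 8.65, 8.70, 8.68 and 9.04 in PTC tumours. PTC 5 was the PTC tumour that reached the ATC range. The difference was 0.45 ± 0.13 (1.36-fold; adjusted p = 0.031), and it was lost without ATC 3, ATC 5, PTC 1, PTC 2, PTC 3 or PTC 4 (0.38 to 0.44; adjusted p 0.0647 to 0.0773). All 6 of its probe sets had positive differences (0.22 to 0.70), of which 2 passed. The mean of its probe sets differed by 0.43 and did not pass (adjusted p = 0.0696). Adamts15 read 6.42 to 6.67 in ATC and 6.72 to 7.08 in PTC, without overlap. Its difference of -0.27 ± 0.08 (adjusted p = 0.0424) was lost without ATC 1, 2, 3 or 5 or PTC 1, 2 or 4 (-0.29 to -0.21; adjusted p 0.0524 to 0.0992) and with the replicate block (adjusted p = 0.105). The Adamts15 call was also lost under a further quantile normalization (-0.20, adjusted p = 0.0941), median centring (-0.23, adjusted p = 0.0726) and array weights (-0.24, adjusted p = 0.0556). Adamts4, Adamts8 and Adamts20 did not pass.

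The remaining ADAMTS classes held 1 call, in the 5 ADAMTS-like genes (20%, against 21.2% of all genes). The 2 genes that act on fibrillin, 2 that cut cartilage oligomeric matrix protein, 1 that cuts von Willebrand factor and 4 others did not pass. Adamtsl1, an ADAMTS-like protein that has no protease domain, read 7.19, 7.19, 7.04, 6.94 and 7.33 in ATC tumours, against 7.42, 7.57, 7.602, 7.48 and 7.47 in PTC tumours. It fell by 0.37 on the log2 scale (SE 0.08; adjusted p = 0.00794), without overlap, and passed in all alternatives that could be run. The second probe set of the gene differed by -0.01, and the mean of both differed by -0.19 (adjusted p = 0.0421). Adamts6, which with Adamts10 acts on fibrillin microfibrils, read 9.03, 8.32, 8.44, 8.51 and 9.46 in ATC tumours, against 8.26, 8.34, 8.21, 7.83 and 8.07 in PTC tumours. ATC 1 and ATC 5 were high and ATC 2 lay within the PTC range. The difference of 0.61 ± 0.20 (adjusted p = 0.0522) passed without ATC 2 (0.72, adjusted p = 0.0283) or ATC 3 (0.69, adjusted p = 0.0446).

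No gene passed in the further classes of the family, each represented by its gene with the largest absolute difference. Adamts7, which cuts cartilage oligomeric matrix protein, read 7.96, 7.78, 8.01, 8.07 and 8.14 in ATC tumours, against 7.86, 7.68, 7.83, 7.94 and 7.998 in PTC tumours (0.13 ± 0.09, adjusted p = 0.325). Adamts16 read 6.66, 6.98, 6.68, 7.02 and 6.65 in ATC tumours, against 7.26, 6.96, 6.93, 6.82 and 7.12 in PTC tumours (-0.22 ± 0.11, adjusted p = 0.186). Adamts13, which cuts von Willebrand factor and is made mainly in liver, read 6.29, 6.17, 6.21, 6.12 and 6.04 in ATC tumours, against 6.01, 6.20, 6.27, 6.11 and 6.23 in PTC tumours (0.00 ± 0.07, adjusted p = 0.995). The groups overlapped for all of them.

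**Figure D5:**
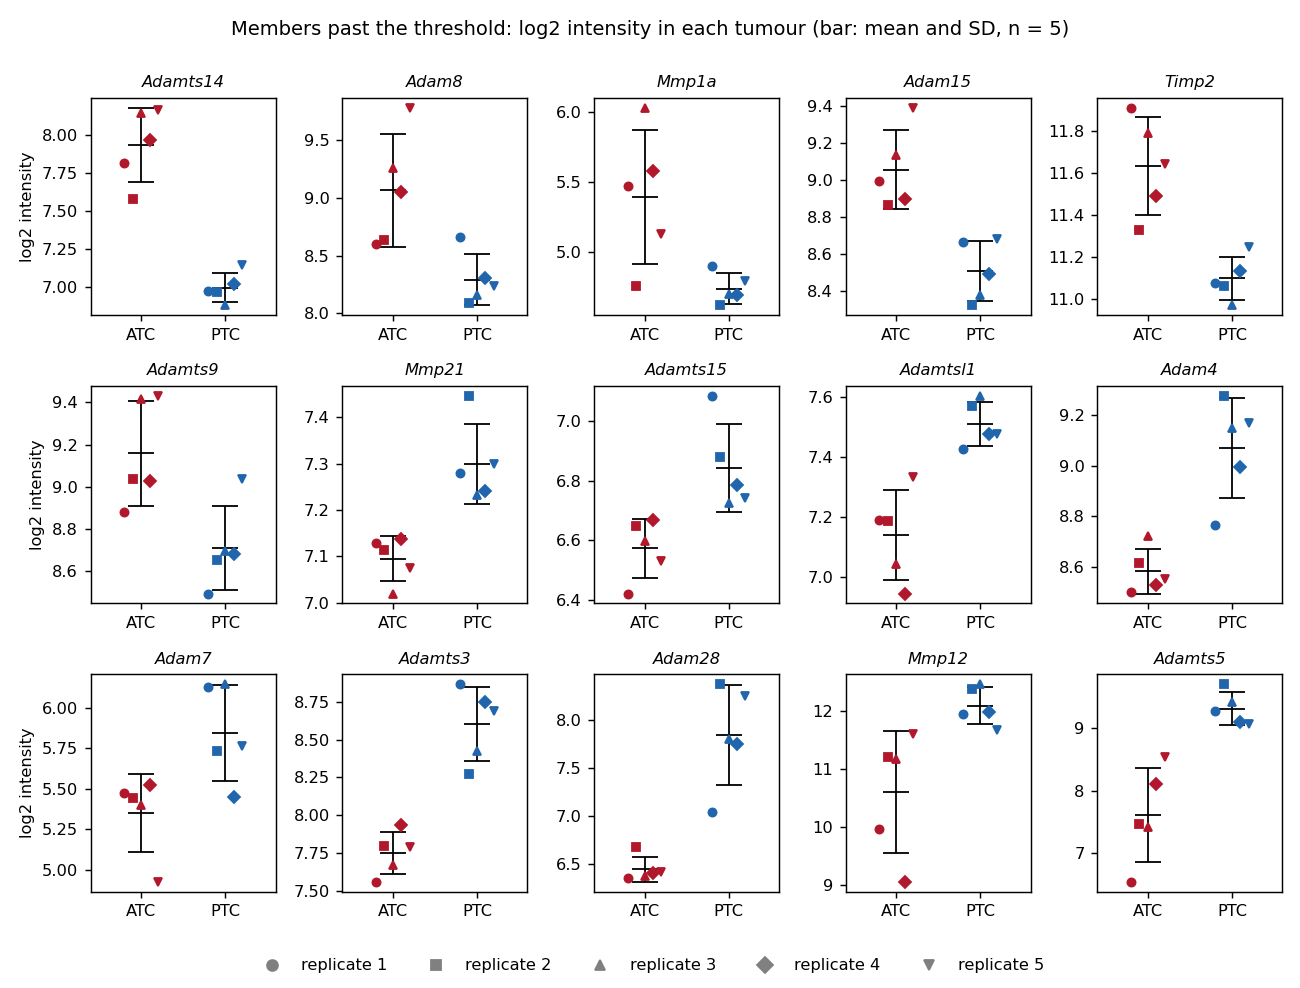
Log2 intensity (vertical axis) of the 15 genes past the threshold in each ATC tumour (red, left) and PTC tumour (blue, right), with mean and SD of 5 tumours. The 6 genes that rose come first and the 9 that fell after them; groups overlap in Adam8, Mmp1a, Adamts9 and Adam7 and in no other of the 15.

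Lists of genes that act with these families were read from the same fit, each beside 11.5% of all genes higher and 9.72% lower in ATC. Of the 10 tetraspanins and other partners of ADAM10 and ADAM17, 3 rose and 0 fell, with a median difference of 0.06. Tspan15, a tetraspanin that escorts ADAM10 to the cell surface and favours N-cadherin as its substrate, read 9.72, 9.49, 10.06, 9.27 and 9.91 in ATC tumours, against 7.53, 7.21, 7.03, 7.40 and 8.08 in PTC tumours. The groups were separated by more than 1 log2 unit, and the difference was 2.24 ± 0.20 (4.72-fold; adjusted p = 7.5e-05). Tspan5, another escort of ADAM10, rose by 1.04 ± 0.16 (adjusted p = 0.001), and Tspan14 by 0.30 ± 0.07 (adjusted p = 0.0107). These partners rose while Adam10 itself differed by -0.01.

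Of 23 activators and other inhibitors of secreted metalloproteinases, 4 rose and 3 fell, with a median difference of -0.04. Plau, urokinase, the protease that makes plasmin, read 10.96, 10.68, 9.75, 10.61 and 10.58 in ATC tumours, against 9.30, 9.23, 9.12, 9.39 and 8.64 in PTC tumours (1.38 ± 0.21, adjusted p = 0.00109). Serpinb2, an inhibitor of urokinase, rose as well, by 2.07 ± 0.38 (adjusted p = 0.00302). Spock3, a testican that in human cells inhibits membrane-type MMPs, read 6.34, 6.42, 5.82, 5.86 and 5.54 in ATC tumours, against 6.21, 10.05, 9.91, 8.63 and 8.79 in PTC tumours. PTC 1 was at the level of the ATC tumours, and the difference was -2.72 ± 0.60 (adjusted p = 0.00782). The other genes of the list that passed, named after their values were seen, were Lrp1 (1.05), the endocytic receptor that clears several MMPs, Itgb3 (0.66), Cd44 (-0.66) and Pcsk5 (-0.64). Without ATC 5 there were 6 that fell, and Itgb3 was lost without ATC 3 or any 1 of the PTC tumours (0.60 to 0.70; adjusted p 0.0577 to 0.0972).

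Of 23 ligands and surface proteins shed by ADAMs, 4 rose and 7 fell, with a median difference of -0.08. Axl, a receptor tyrosine kinase cut by ADAM10 and ADAM17, read 10.37, 10.07, 10.29, 10.41 and 10.43 in ATC tumours, against 9.10, 9.24, 9.23, 9.10 and 9.05 in PTC tumours (1.17 ± 0.08, adjusted p = 2.23e-05). Jag1, a Notch ligand, read 7.86, 8.13, 7.75, 7.67 and 7.96 in ATC tumours, against 8.72, 8.78, 9.14, 8.85 and 9.42 in PTC tumours (-1.11 ± 0.14, adjusted p = 0.000396). In both genes the groups did not overlap. Named after their values were seen, Vcam1 (1.02), Notch2 (0.84) and Il6ra (0.65) also rose, and Cx3cl1 (-0.70), Alcam (-0.58), Met (-1.05), Ereg (-0.97) and Dll1 (-0.22) fell with Jag1 and Fcer2a. The call of Met was lost without ATC 4, PTC 2 or PTC 3 (adjusted p up to 0.0614) and that of Ereg without ATC 1, 4 or 5 or PTC 1, 2, 4 or 5 (up to 0.0675). That of Dll1 was lost without ATC 1, 2, 3 or 5 or PTC 1, 3 or 5 (up to 0.091).

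Of 20 matrix substrates, 2 rose and 5 fell, with a median difference of -0.14. Nid1, the basement membrane linker nidogen, read 10.76, 10.88, 9.72, 9.55 and 11.39 in ATC tumours, against 9.09, 8.67, 8.74, 8.85 and 9.16 in PTC tumours (1.56 ± 0.31, adjusted p = 0.00488). Comp, the substrate of Adamts7 named above, read 6.52, 6.90, 6.56, 6.71 and 6.72 in ATC tumours, against 7.71, 7.77, 7.62, 7.71 and 8.39 in PTC tumours (-1.16 ± 0.14, adjusted p = 0.000342). Dcn, the collagen-binding proteoglycan decorin, which is also a fibroblast marker, fell by 1.35 on the log2 scale (SE 0.19; adjusted p = 0.000648). Named after their values were seen, Fn1 (0.55) rose, and Col4a1 (-0.51), Col4a2 (-0.31) and Eln (-0.62) fell.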

How the data were processed

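Total RNA was extracted with Qiazol, labelled with biotin by the Affymetrix whole-transcript sense-target method and hybridised to 1 array per tumour, per the labels' protocols. The deposited table holds 35556 probe sets. The authors' values are read here as normalized log2 intensities, from their range of 2.79 to 14.15; neither the scale nor the normalization is stated. Affymetrix Power Tools and limma appear in the submitters' processing notes, with no version. Without detection calls, small differences of dim genes are uncertain, and precision is limited by the number of arrays.

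The platform annotation gave gene names: 21789 probe sets had 1 symbol, 1621 several (not used) and 12146 none. ATC minus PTC was fitted over 19938 genes in limma (version 3.58.1, R version 4.3.3; functions lmFit and eBayes) with group as the single term and no filter, and with Benjamini-Hochberg adjustment and a threshold of 0.05; intervals are 95% intervals of that fit. The procedure was tested on simulated data. Groups and replicate numbers came from the titles. All 83 symbols matched RefSeq by gene ID. Promoter sequences are RefSeq's (GRCm38.p6). Trp53 was not analysed here.

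The genes, role classes and lists were chosen with earlier results of these data known. Given per tumour were the TIMPs, Mmp2, Mmp9, Mmp14, Adam10, Adam17, genes past the threshold by at least 0.5 log2 units, and the gene with the largest absolute difference of each role class. Named of each list were the 3 genes with the largest absolute difference and all that passed where 5 or fewer did. Other genes shown in full were added after their values were seen. Besides the fit described, 17 others were run: 10 with an array left out, 1 each with the replicate number as a block (replicate block), with probe sets averaged per gene, a filter on dim genes (mean of at least 7.50), a further quantile normalization, median centring, a variance trend with robust fit, and array weights; a fit leaving out ATC 2 and ATC 5 together was added, chosen after seeing the data.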

Additional observations from a re-analysis of the deposited data

Results flagged for a closer look

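In 10 of 166 groups of 5 tumours (6.02%), 1 tumour lay far from the other 4, with a gap to its nearest neighbour of more than 0.71 of the group's range; chance flags about 1 in 20 groups. In ATC tumours these were ATC 5 for Mmp14 (10.57, others 9.67 to 9.81), Mmp19 (9.31, others 8.35 to 8.56) and Adam7 (4.93, others 5.40 to 5.52), ATC 4 for Adam1b (7.61, others 6.70 to 6.94) and Adam6b (4.22, others 4.01 to 4.05), and ATC 2 for Adam28 (6.68, others 6.36 to 6.43). In PTC tumours they were PTC 3 for Adamts1 (8.62, others 8.94 to 9.01) and Mmp20 (6.10, others 5.64 to 5.75), PTC 4 for Adam32 (6.03, others 6.21 to 6.26) and PTC 5 for Adam25 (3.58, others 3.74 to 3.79).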

How the results depend on the processing

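Of the 15 genes past the threshold, 8 passed under every alternative run on them: Adam15, Adam28, Adam4, Adamts14, Adamts3, Adamts5, Adamtsl1 and Timp2. No called difference changed sign in any alternative. Sign changes of differences that did not pass were counted in 38 of the family genes only. There they occurred 11 times, in Adam10, Adam17 and Adamts13, and the other family genes were not checked for them. The number of family genes that rose was 6, and 3 to 8 when single tumours were left out, with 3 without PTC 3. The number that fell was 9, and 5 to 12 when single tumours were left out; with the filter on dim genes it was 5, since fewer genes were tested. The median difference of the family was -0.0129, and 0.0263 with that filter, 0.0223 after a further quantile normalization, 0.0243 after centring, and -0.0433 to 0.0090 with single tumours left out. Timp3 (-0.81, adjusted p = 0.0508) passed with the filter on dim genes (-0.81, adjusted p = 0.0372), a further quantile normalization (-0.88, adjusted p = 0.0466), centring (-0.77, adjusted p = 0.0479) and array weights (-0.74, adjusted p = 0.0254), and without ATC 2 and ATC 5 together (-1.16, adjusted p = 0.0092); with single tumours left out it ran from -0.99 to -0.61. The cause was not tested. With the replicate block 6 genes rose and 10 fell, and Timp3 passed (-0.81, adjusted p = 0.0322); Adamts15 and Mmp21 were lost and Mmp2 and Mmp11 passed. Deviations of same-numbered tumours correlated at -0.09 to 0.12, and 1 of 5 tumours correlated best with its own number, so the numbers are read as names. Over the settings 3253 to 4647 genes passed in all, and the median difference of all genes ran from -0.03 to 0.06. No detection calls or scan batches were given, which limits what can be said of dim genes.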

Other observations

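Markers of other cell types gave these counts, each beside 11.5% of all genes higher and 9.72% lower in ATC. Of 7 thyrocyte markers measured 1 fell (Tshr, -1.67, adjusted p = 0.0295; lost without ATC 1, 3 or 5 or PTC 1, 3, 4 or 5, adjusted p 0.0516 to 0.0736), but 3 fell without ATC 2, Tg and Pax8 (-1.17, adjusted p = 0.0391) being the others, and 2 without ATC 4. The list means were 6.94 to 8.42 in ATC and 8.13 to 9.17 in PTC. Of 6 endothelial markers 2 fell, Tek (-0.67, adjusted p = 0.016) and Pecam1 (-0.40), whose call was lost without ATC 1, ATC 3 or any 1 of the PTC tumours (adjusted p 0.0603 to 0.117). Without ATC 2, 4 of the 6 fell, among them Kdr (-0.81, adjusted p = 0.0196). Of 6 pericyte and smooth muscle markers 1 fell (Myh11, -0.52, adjusted p = 0.00423), and 2 without ATC 2, with Rgs5 (-0.64, adjusted p = 0.0291). Of 5 mast cell markers 2 rose: Cpa3, the mast cell carboxypeptidase, read 8.81, 9.58, 6.58, 8.69 and 5.87 in ATC 1 to 5, against 5.74, 6.09, 5.78, 6.26 and 5.83 in PTC 1 to 5 (1.96, adjusted p = 0.0397), and Tpsb2 differed by 0.25 (adjusted p = 0.0496). The Cpa3 call was lost without ATC 1, 2 or 4 or any 1 of the PTC tumours (adjusted p 0.064 to 0.0893), and the Tpsb2 call without ATC 1, 2, 3 or 4 or any 1 of the PTC tumours (adjusted p 0.0512 to 0.111). Of 7 cartilage markers 1 fell (Comp), and no marker of skeletal muscle (6), parathyroid (2) or fat (3) passed. Muscle and parathyroid markers varied widely within both groups. Pth, parathyroid hormone, read 4.73 (ATC 5) to 11.97 (ATC 2) in ATC and 4.38 (PTC 5) to 12.66 (PTC 1) in PTC. The muscle list mean was 7.22 to 8.70 in ATC and 6.82 to 9.34 in PTC. The part of such tissue in the readings of single tumours was not tested.

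Some genes of the families lie close together elsewhere in the genome, and other protein-coding genes may lie between these neighbours. On chromosome 14 Adam7 and Adam28 are neighbours and both fell (-0.49 and -1.40), beside 9.72% of all genes lower in ATC. The Adam7 call was lost under 11 of the 17 alternatives run on it. On chromosome 12 Adam4 fell (-0.49) and its neighbour Adam21 did not pass (0.05). On chromosome 8 runs of 5, 4 and 4 neighbouring Adam genes held no gene that passed. On chromosome 16 Adamts5 fell (-1.70) and its neighbour Adamts1 did not pass (-0.35). On chromosome 9, apart from the MMP cluster, Adamts15 fell (-0.27) and its neighbour Adamts8 did not pass (0.20).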
